A study of Mus musculus with 4 samples.

Results

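The genes described here are 41 of the 26207 genes measured in the study, chosen by name for their place in the cyclic AMP (cAMP) pathway. They are 5 G alpha subunits, 4 adenylyl cyclases, 7 phosphodiesterases, 2 catalytic and 4 regulatory subunits of protein kinase A (PKA), 5 A-kinase anchoring proteins, 3 transcription factors of the CREB family, 5 coactivators, 3 exchange factors for the small GTPase Rap and 3 salt-inducible kinases. All 41 were found in the table and all were tested. They were chosen with earlier results of these data known, so shares of calls among them are a description only. The study measured bulk mRNA of mouse T helper 2 (Th2) cells, CD4 helper T cells known for making type 2 cytokines, with the spleen given as tissue. One group of 2 libraries had been given dopamine at 10 µM and the other group of 2 libraries PBS, the buffer control. The labels state neither strain, age and sex of the mice nor the time of exposure or the culture conditions. The study's title concerns sympathetic nerves of the lung and resident memory Th2 cells, and dopamine is a catecholamine that such nerves make.

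Dopamine receptors act through G proteins. Receptors of the D1 class couple to the stimulatory G alpha subunit, which switches on adenylyl cyclase, and receptors of the D2 class couple to inhibitory subunits, which hold it back. Cyclases make cAMP, phosphodiesterases break it down, and cAMP frees the catalytic subunits of PKA from the regulatory subunits, after which PKA can phosphorylate CREB in the nucleus and restrain the salt-inducible kinases. In T cells a high cAMP level is known to dampen signalling from the antigen receptor, and type 3, 4 and 7 phosphodiesterases are known to keep that level low.

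Values are the authors' normalized read counts, which are reads divided by 1 scaling factor for each library. The libraries held 14167357 (dopamine A), 11492182 (dopamine B), 5717408 (PBS A) and 13241168 (PBS B) reads assigned to genes, and the letters only tell the libraries of a group apart. Log2 fold changes give dopamine minus PBS after adding 1 to each value, and a gene is called higher or lower at a Benjamini-Hochberg adjusted p of 0.05 from limma over all 26207 genes. Whether the 2 libraries of a group stem from separate mice or cultures is not stated, so the p-values describe the spread between libraries alone, and that spread may be technical. An exact permutation test of 2 against 2 libraries cannot go below 0.333, so no single gene could pass it. Abundant genes, here those averaging at least 100, shifted by a median of 0.198 on the log2 scale under the authors' scaling and by 0.003 once the libraries were rescaled on them, and small rises of abundant genes are to be read against that shift. Helper T cell markers summed to 38135 and 39768 in the dopamine libraries and to 33587 and 35629 in the PBS libraries. Of these 10 markers, 6 were called higher and 1, Trac, was called lower. The Th2 markers summed to 4863 and 5112 with dopamine and to 2935 and 3045 with PBS, with 4 of 7 called higher and 1 lower. Markers of basophils and mast cells summed to 879 and 816 with dopamine, against 2613 and 2231 with PBS, and 8 of 9 were called lower. Platelet markers summed to 466 and 416 with dopamine, against 1616 and 1400 with PBS, and 8 of 8 were called lower. B cell markers summed to 397 and 391 with dopamine, against 187 and 156 with PBS, with 4 of 7 called higher. Red cell markers summed to 90.3 and 58.3 with dopamine, against 401 and 296 with PBS (3 of 5 lower), and those of monocytes, macrophages and neutrophils to 92.6 and 88.4 with dopamine, against 195 and 207 with PBS (4 of 8 lower). Markers of CD8 T and NK cells summed to 535 and 513 with dopamine, against 290.5 and 245 with PBS (2 of 6 higher). Those of dendritic cells summed to 82.5 and 76.7 with dopamine, against 100.2 and 91.9 with PBS (1 of 5 lower). Mitochondrial genes took 4.62% and 4.08% of reads with dopamine, against 5.64% and 6.22% with PBS. Fewer cells of a type and less RNA per cell cannot be told apart in such bulk libraries, and the part of these cell types and of the mitochondrial share in the results on the pathway was not tested.

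Of the 41 genes, 4 were called higher with dopamine, 11 were called lower and 26 were not called. The 15 calls made up 36.6% of the members, against 21.3% of all genes. The share called higher was 9.76%, against 14.3% of all genes, and the share called lower was 26.8%, against 7.00% of all genes. Of the 32 members among the abundant genes, 12.5% were called higher and 28.1% lower, 40.6% in all, whereas abundant genes were called higher in 39.1% of cases and lower in 7.90%, 47.0% in all. The dopamine and PBS libraries did not overlap for 29 members (70.7%), 14 higher and 15 lower, against 58.9% of all genes. Of the 32 abundant members 24 (75%) did not overlap, against 76.3% of the abundant genes. The median log2 fold change of the 41 was -0.01, beside -0.08 over all genes. The 11 falls were those of 3 phosphodiesterases, 2 cyclases and 1 gene each among the catalytic subunits, the regulatory subunits, the anchoring proteins, the CREB family, the Rap exchange factors and the salt-inducible kinases. The G alpha subunits and the CREB coactivators gave no call. By p-value the leading changes were the falls of Pde4d, Crem, Prkar2b and Prkacb and the rise of Sik3. These 5 were called in the same direction in all 14 alternative analyses, and the other 10 calls were lost in at least 1 of them without any change of sign. Counts shifted with the tool, the gene filter and the scaling. On the recovered reads, edgeR with its gene filter called 2 members higher (4.88%) and 14 lower (34.1%). Of the genes it tested, 18.2% were higher and 15.8% lower. Without that filter, edgeR called 4 members higher (9.76%) and 11 lower (26.8%), the same counts as limma, among 5537 genes called of 26207. DESeq2 called 2 higher (4.88%) and 7 lower (17.1%), against 19.6% higher and 5.53% lower of its genes. For both tools the member shares are of all 41, whereas the gene shares cover only genes given an adjusted p-value. The authors' deposited table gave an adjusted p-value for 39 members, of which 2 were higher and 7 lower at 0.05, also against 19.6% and 5.53% of its genes. That table came from the same reads by the same tool, DESeq2, so it adds no separate result. After rescaling on abundant genes, limma called 2 members higher (4.88%) and 18 lower (43.9%), against 6.90% higher and 12.1% lower of all genes.

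**Figure D1:**
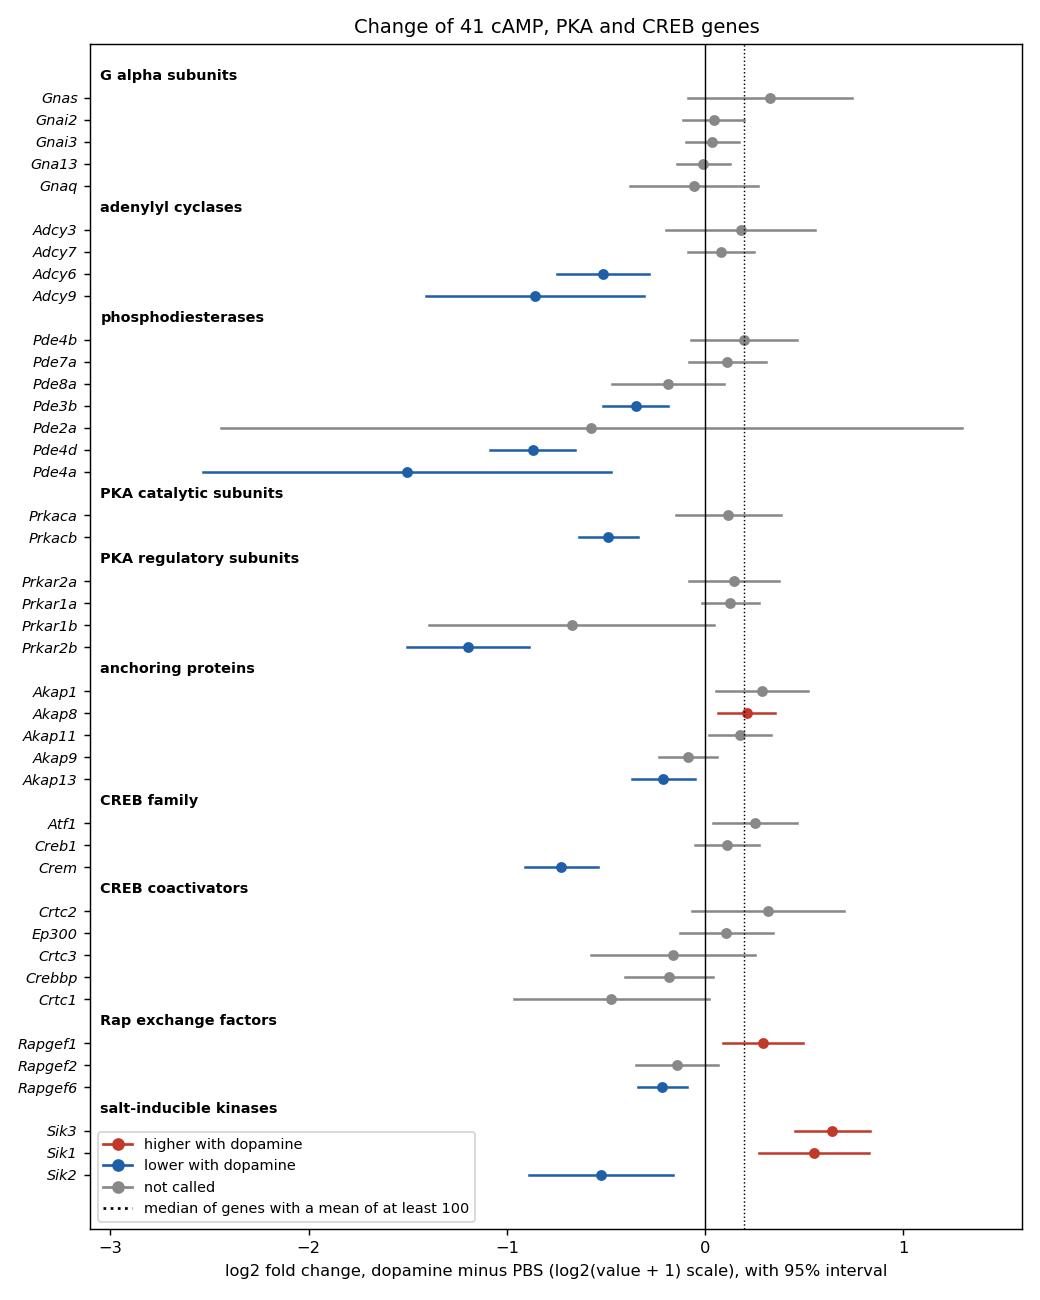
Log2 fold changes of the 41 genes, dopamine minus PBS, with 95% confidence intervals, grouped by role, where the dotted line marks 0.198, the median of the abundant genes. The coloured genes number 4 on the higher side and 11 on the lower side, with Pde4a and Prkar2b farthest to the left and Sik3 farthest to the right.

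No G alpha subunit was called in either direction. Gnas, which encodes the stimulatory subunit that switches on adenylyl cyclase, had 67.9 and 78.7 in the dopamine libraries, against 62.9 and 53.6 in the PBS libraries. Both dopamine libraries lay above both PBS libraries, and the log2 fold change was 0.33 (95% confidence interval -0.09 to 0.74, limma adjusted p = 0.278). Gnas lies at chr2:174284320-174346744 on the mm10 build, and 22% of its exon bases overlap exons of Nespas and Gm20721 on the other strand. Whether the counting used strand is not stated. Gnai2 and Gnai3 encode inhibitory subunits, which hold adenylyl cyclase back, and were among the abundant members. Gnai2 had 1639 and 1867 with dopamine, against 1658 and 1740.0 with PBS, with a log2 fold change of 0.04 (95% confidence interval -0.11 to 0.20, limma adjusted p = 0.741). Gnai3 had 2932 and 2942 with dopamine, against 2850.4 and 2885 with PBS, with a log2 fold change of 0.03 (95% confidence interval -0.10 to 0.17, limma adjusted p = 0.758). The 2 groups overlapped for Gnai2 and lay close together for Gnai3, and neither passed the test. Gnaq, whose product activates phospholipase C, averaged 121 ± 11.5 with dopamine and 125 ± 6.82 with PBS (SD, n = 2 each), a log2 fold change of -0.06. Gna13 averaged 2966 ± 125 with dopamine and 2983 ± 55.1 with PBS (SD, n = 2 each), a log2 fold change of -0.01. Limma gave no G alpha subunit an unadjusted p under 0.05, edgeR and DESeq2 on the recovered reads called 0 of 5, and the rescaling on abundant genes called Gnai3 (-0.16) and Gna13 (-0.20) lower.

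Among the adenylyl cyclases, which make cAMP, Adcy6 and Adcy9 fell and Adcy3 and Adcy7 were not called. Adcy6 encodes a cyclase that calcium and the inhibitory G alpha subunits restrain. It had 269 and 279 in the dopamine libraries, against 358 and 429 in the PBS libraries, and the groups did not overlap. Its log2 fold change was -0.52 (SE 0.12, limma adjusted p = 6.60e-04), and without PBS B it was -0.39 and no longer called (adjusted p = 0.0533). Adcy9, a widely expressed cyclase that forskolin activates poorly, had 23.1 and 33.01 in the dopamine libraries, against 40.8 and 63.6 in the PBS libraries. All 4 values were low and the groups did not overlap, with a log2 fold change of -0.86 (SE 0.27, limma adjusted p = 0.0183). That call was lost in DESeq2 (-0.93, adjusted p = 0.127), without dopamine A (-0.61) and without PBS B (-0.54). Adcy7, a cyclase known for its expression in blood cells, was the most abundant of the 4 and had 1187 and 1400.2 with dopamine, against 1184 and 1257 with PBS. Its groups overlapped, with a log2 fold change of 0.08 (95% confidence interval -0.09 to 0.25, limma adjusted p = 0.544). Adcy3, best known from olfactory neurons, averaged 88.5 ± 9.46 with dopamine and 77.9 ± 6.86 with PBS (SD, n = 2 each), a log2 fold change of 0.18 (95% confidence interval -0.20 to 0.56, limma adjusted p = 0.539). Adcy3 shares 22.1% of its exon bases with Cenpo on the other strand, and Adcy6 shares 8.92% with Gm29331 on the other strand. Of the reads in the 4 cyclases, Adcy7 took 76.04% in dopamine A and 77.5% in dopamine B, against 71.5% in PBS A and 68.6% in PBS B, and Adcy6 took 17.2% in dopamine A and 15.4% in dopamine B, against 21.6% in PBS A and 23.4% in PBS B. The dopamine libraries thus had a larger share of Adcy7 and a smaller share of Adcy6 than either PBS library.

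Of the 7 phosphodiesterases, which break cAMP down, 3 fell, none rose and 4 were not called. Pde4d, of the cAMP-specific type 4 family that rolipram inhibits, showed the most marked fall of the well-measured ones. It lies at chr13:108449948-109953461 and had 285 and 314 in the dopamine libraries, against 552 and 543 in the PBS libraries. The libraries of each group lay close together and far from the other group. The log2 fold change was -0.87 (95% confidence interval -1.08 to -0.66, limma adjusted p = 1.30e-08), so the PBS mean was 1.83 times the dopamine mean. Pde3b, which also binds cGMP and is inhibited by it, had 1119 and 1075 in the dopamine libraries, against 1319.9 and 1483 in the PBS libraries. The groups did not overlap and the log2 fold change was -0.35 (SE 0.08, limma adjusted p = 9.42e-04), but without PBS B it was -0.27 with an adjusted p of 0.0702. Pde4a, a relative of Pde4d, rested on few reads, 4 and 8 reads with dopamine and 13 and 15 reads with PBS. Its normalized counts were 3.09 and 7.77 with dopamine, against 22.1 and 11.5 with PBS, with a log2 fold change of -1.50 (SE 0.51, limma adjusted p = 0.0281). Without dopamine A (-0.95) or without PBS A (-1.06) Pde4a was not called.

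The other phosphodiesterases did not pass the test. Pde4b, the type 4 enzyme known for its induction after T cell activation, had 206 and 224 with dopamine, against 189 and 187 with PBS. All dopamine values lay above all PBS values, yet the log2 fold change was only 0.19 (95% confidence interval -0.07 to 0.46, limma adjusted p = 0.321). Pde7a, a cAMP-specific enzyme known from T cells, averaged 629 ± 38.5 with dopamine and 582 ± 35.6 with PBS (SD, n = 2 each), a log2 fold change of 0.11 (95% confidence interval -0.08 to 0.30, limma adjusted p = 0.447). Pde8a, an enzyme with high affinity for cAMP, averaged 167 ± 5.74 with dopamine and 191 ± 19.7 with PBS (SD, n = 2 each), a log2 fold change of -0.19 (95% confidence interval -0.47 to 0.09, limma adjusted p = 0.368). Pde2a, which cGMP stimulates, was hardly detected, with 5 and 0 reads with dopamine and 3 and 1 reads with PBS. With so few reads no difference in Pde2a could be shown. Exons of Gm45837 on the same strand overlap 64.3% of the Pde2a exon bases. The part of that overlap in the low counts was not tested. Within the pair of type 4 enzymes that were well measured, Pde4d took 58.1% in dopamine A and 58.3% in dopamine B, against 74.5% in PBS A and 74.4% in PBS B of the reads. The type 4 reads were therefore shared more evenly between Pde4b and Pde4d with dopamine than with PBS. Of all reads in the 7 phosphodiesterases, Pde3b took 45.9% in dopamine A and 44.9% in dopamine B, against 46.8% in PBS A and 48.8% in PBS B. Pde7a took 26.9% in dopamine A and 25.2% in dopamine B, against 19.7% in PBS A and 20% in PBS B. Pde3b thus stayed the main contributor in every library, and Pde7a had the larger share with dopamine.

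The catalytic subunits of PKA are the kinase itself. Prkacb, which encodes the beta form, fell and Prkaca, which encodes the alpha form, was not called. Prkacb lies at chr3:146729574-146812990 and had 1434 and 1513 in the dopamine libraries, against 2084 and 2053 in the PBS libraries. The groups were far apart compared with the spread inside each, and the log2 fold change was -0.49 (95% confidence interval -0.64 to -0.34, limma adjusted p = 1.13e-06). Prkaca had 257 and 260.2 with dopamine, against 204 and 279 with PBS. The 2 PBS libraries of Prkaca enclosed both dopamine values, and the log2 fold change was 0.12 (95% confidence interval -0.15 to 0.38, limma adjusted p = 0.575). Of the reads in both genes, Prkacb took 84.8% in dopamine A and 85.3% in dopamine B, against 91.1% in PBS A and 88.04% in PBS B. Exact binomial 95% intervals, which cover counting error only, were 83.2% to 86.3% in dopamine A and 83.6% to 86.9% in dopamine B, against 89.4% to 92.6% in PBS A and 86.8% to 89.2% in PBS B. Those of dopamine B and PBS B touched, from 86.8% to 86.9%.

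The regulatory subunits bind the catalytic subunits until cAMP releases them, and only Prkar2b among the 4 was called. Prkar2b encodes the type II beta subunit, lies at chr12:31958476-32061296 and had 94.9 and 88.4 in the dopamine libraries, against 229 and 194 in the PBS libraries. Its log2 fold change of -1.19 (95% confidence interval -1.50 to -0.89, limma adjusted p = 3.68e-08) was the most negative among the 32 abundant members, and the PBS mean was 2.31 times the dopamine mean. Prkar2b is also known from platelets, whose 8 markers all fell, with a median log2 fold change of -1.82, and their part in the Prkar2b result was not tested. Prkar1a, the type I alpha subunit that most cells use, was the most abundant and had 2049.7 and 2060.4 with dopamine, against 1839.7 and 1924 with PBS. Both dopamine values lay above both PBS values, but the log2 fold change of 0.13 (95% confidence interval -0.02 to 0.27, limma adjusted p = 0.218) did not pass, and it was -0.07 after rescaling on abundant genes. Prkar2a, the type II alpha subunit, averaged 347 ± 10.6 with dopamine and 314 ± 13.6 with PBS (SD, n = 2 each), a log2 fold change of 0.15 (95% confidence interval -0.08 to 0.37, limma adjusted p = 0.394). Prkar1b, the type I beta subunit known mainly from nervous tissue, had 12.3 and 20.4 with dopamine, against 20.4 and 32.9 with PBS. Its groups met at a value of 20.4, and the log2 fold change was -0.67 (95% confidence interval -1.39 to 0.04, limma adjusted p = 0.185). Prkar1b shares 8.95% of its exon bases with Gm15672 on the same strand. Of the reads of both type II genes, Prkar2b took 21.8% in dopamine A and 19.96% in dopamine B, against 42.99% in PBS A and 37.5% in PBS B. Of the reads in all 4 regulatory genes, Prkar1a took 82.1% in dopamine A and 81.6% in dopamine B, against 76.9% in PBS A and 77.8% in PBS B. The dopamine libraries thus held less of the type II beta form and a larger share of the type I alpha form. Summed per kilobase of exon, regulatory transcripts stood to catalytic transcripts as 2.09 in dopamine A and 2.03 in dopamine B, against 1.69 in PBS A and 1.61 in PBS B. The regulatory sums were 556.8 and 561.95 with dopamine, against 541.6 and 557.65 with PBS. The catalytic sums were 266.7 and 277.05 with dopamine, against 319.5 and 346.1 with PBS. The ratio thus moved mainly with the catalytic sum, which holds Prkacb, and it was not tested.

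**Figure D2:**
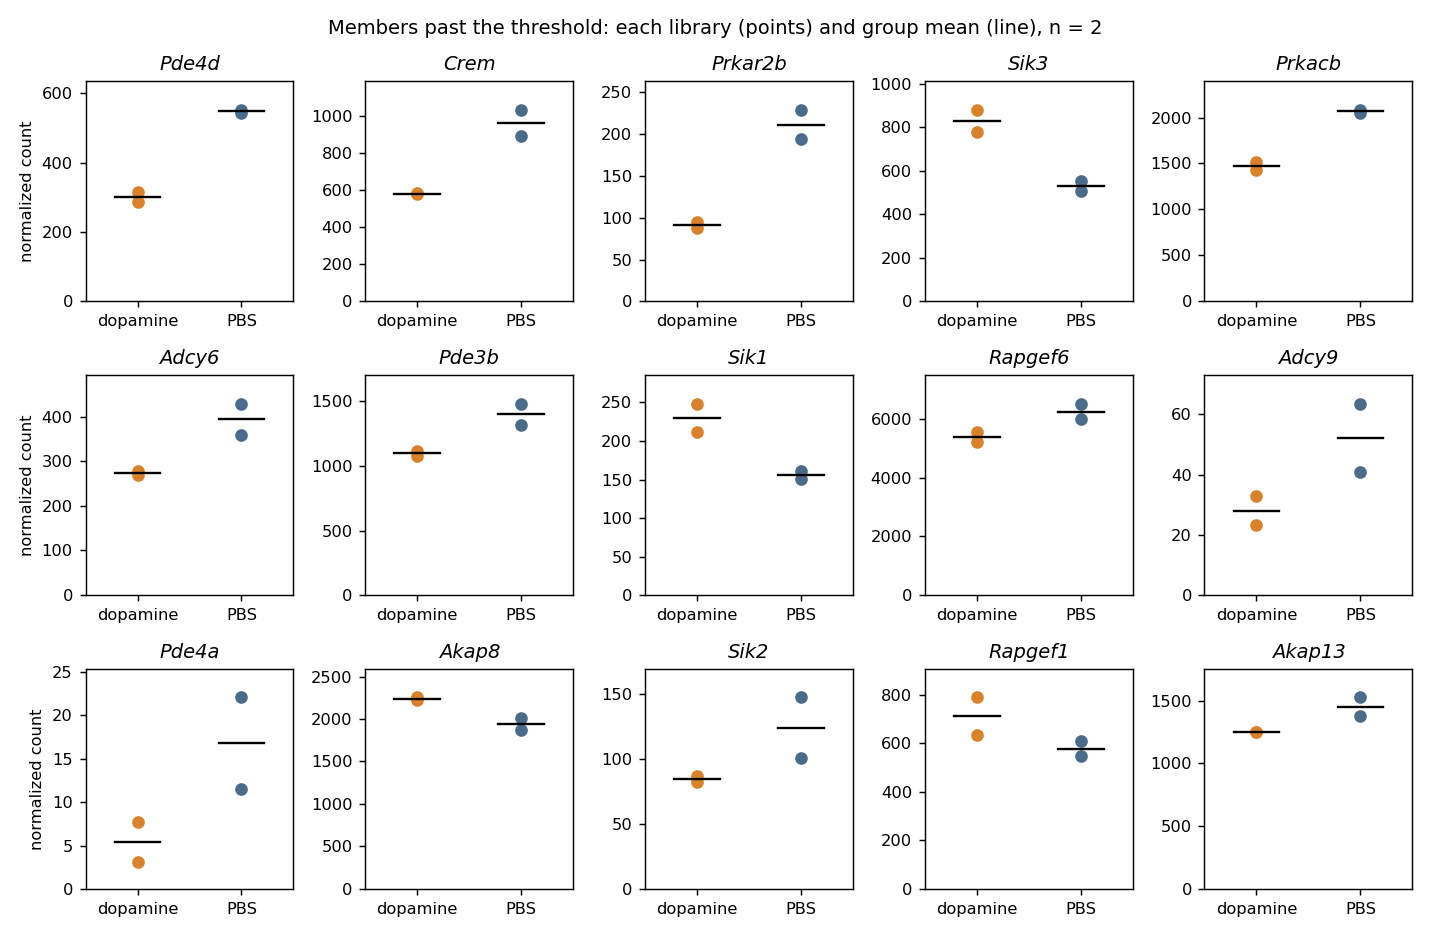
Normalized read counts in each of the 4 libraries for the 15 called genes, 1 panel each, with dopamine libraries to the left of PBS libraries and a bar at the mean of 2 libraries. The groups do not overlap in any panel, which picking called genes makes likely and which 58.9% of all genes show. Sik1, Sik3, Akap8 and Rapgef1 are the 4 with higher dopamine values.

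The sequences around the starts of 3 PKA genes are shown because the subunits they encode behaved differently and because the cAMP response element, the site that CREB binds, can be looked for in them. They are windows of 300 bases, 250 before the start and 50 after it, from RefSeq on GRCm38.p6, read 5′ to 3′ on the gene's strand. Capitals mark matches to the whole element TGACGTCA or to its shorter form TGACG, searched on both strands, where the other strand reads CGTCA; each whole element also holds both short forms. Prkar1a is at chr11:109650699-109650998 on the plus strand, Prkacb at chr3:146812897-146813196 on the minus strand and Prkar2b at chr12:32061228-32061527 on the minus strand.
Prkar1a: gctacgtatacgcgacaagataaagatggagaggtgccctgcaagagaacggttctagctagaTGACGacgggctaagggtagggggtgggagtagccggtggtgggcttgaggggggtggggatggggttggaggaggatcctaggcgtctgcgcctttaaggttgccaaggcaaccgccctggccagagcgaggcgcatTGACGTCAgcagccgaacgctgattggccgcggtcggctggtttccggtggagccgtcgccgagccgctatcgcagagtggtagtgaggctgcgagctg
Prkacb: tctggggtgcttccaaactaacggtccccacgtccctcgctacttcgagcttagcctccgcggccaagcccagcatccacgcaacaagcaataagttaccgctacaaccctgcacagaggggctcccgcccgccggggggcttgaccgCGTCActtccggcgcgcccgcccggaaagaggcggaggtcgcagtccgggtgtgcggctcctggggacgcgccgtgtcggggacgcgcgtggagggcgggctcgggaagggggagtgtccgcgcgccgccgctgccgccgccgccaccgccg
Prkar2b: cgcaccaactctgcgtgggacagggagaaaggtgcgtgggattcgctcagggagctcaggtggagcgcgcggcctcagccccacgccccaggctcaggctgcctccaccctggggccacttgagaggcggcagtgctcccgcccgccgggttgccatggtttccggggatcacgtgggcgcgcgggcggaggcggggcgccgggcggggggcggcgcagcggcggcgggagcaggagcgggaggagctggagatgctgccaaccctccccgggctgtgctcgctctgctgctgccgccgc
The window of Prkar1a held the whole element, beginning 49 bases before the start, and a short form upstream of it. That of Prkacb held 1 short form on the other strand, and that of Prkar2b held neither. Each gene has other starts in the table. Of 6 windows of Prkar1a, 4 lacked the whole element and 3 lacked both forms, 2 of 3 windows of Prkacb held no match, and neither of the 2 windows of Prkar2b held one. Among all 32851 windows in the table, 1.79% held the whole element and 20.8% a short form on either strand. A window was available for 34 members, with 66 windows in all because some genes have several starts. Of these 66, 2 held the whole element, both of them overlapping windows of Prkar1a with the same site, and 22 (33.3%) held a short form. The 66 windows came from 34 members and the 32851 windows from 27025 genes, with several windows of a gene counted apart. These shares are a description only. A match is not evidence of binding, and a window without one says nothing about sites elsewhere.

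The anchoring proteins tether PKA to places in the cell, and Akap8 was called higher and Akap13 lower. Akap8, an anchor of the nuclear matrix, had 2225 and 2255 in the dopamine libraries, against 1870.3 and 2007 in the PBS libraries. The groups did not overlap, and the log2 fold change of 0.21 (SE 0.07, limma adjusted p = 0.0294) was about the size of the median of abundant genes. The call was lost in 9 alternatives, among them edgeR (0.10), DESeq2 (0.21) and rescaling on abundant genes (0.01). Akap13 had 1254 and 1249 in the dopamine libraries, against 1376 and 1527 in the PBS libraries. Its log2 fold change was -0.21 (SE 0.08, limma adjusted p = 0.0489), and 6 alternatives lost the call, DESeq2 and each left-out library among them. Akap1, an anchor of the mitochondrial outer membrane, had 349 and 377 with dopamine, against 275 and 322 with PBS, and its log2 fold change was 0.29 (95% confidence interval 0.05 to 0.52, limma adjusted p = 0.0718). Akap11, known to bind type II PKA and a kinase of glycogen metabolism, had 1489 and 1535 with dopamine, against 1313 and 1365 with PBS, and its log2 fold change was 0.18 (95% confidence interval 0.02 to 0.33, limma adjusted p = 0.101). Akap9, an anchor of the Golgi apparatus and the centrosome, had 1815 and 1822 with dopamine, against 1918 and 1944 with PBS. Its log2 fold change was -0.09 (95% confidence interval -0.23 to 0.06, limma adjusted p = 0.431), and edgeR called it lower (-0.19, adjusted p = 0.0165). The groups did not overlap for any of the 5 anchors, a pattern shown by 76.3% of the abundant genes, and the changes were small.

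In the CREB family, Crem fell while Creb1 and Atf1 were not called. Crem encodes both activators and repressors of cAMP-responsive genes, the short repressor ICER among them, and the gene's counts sum all of these forms. It had 582 and 576 in the dopamine libraries, against 890.1 and 1031 in the PBS libraries. The dopamine libraries were nearly alike and both lay well below the PBS libraries, with a log2 fold change of -0.73 (95% confidence interval -0.91 to -0.54, limma adjusted p = 2.99e-08) and a PBS mean 1.66 times the dopamine mean. An exon of Gm6225 on the other strand overlaps 8.01% of the Crem exon bases. Creb1, the factor that PKA is best known to phosphorylate, had 1313 and 1230.2 with dopamine, against 1206 and 1152 with PBS, a log2 fold change of 0.11 (95% confidence interval -0.05 to 0.27, limma adjusted p = 0.365). Atf1, a close relative of Creb1, had 494 and 495 with dopamine, against 384 and 449.7 with PBS, a log2 fold change of 0.25 (95% confidence interval 0.04 to 0.46, limma adjusted p = 0.0839). Both had higher values in both dopamine libraries without passing the test, and after rescaling on abundant genes the log2 fold change of Creb1 was -0.09. Of the reads in the 3 genes, Crem took 24.4% in dopamine A and 25.02% in dopamine B, against 35.9% in PBS A and 39.2% in PBS B.

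None of the 5 CREB coactivators was called. Crtc1, Crtc2 and Crtc3 encode the CREB-regulated coactivators, which stay in the cytoplasm while salt-inducible kinases phosphorylate them. Crtc1 had 32.4 and 44.7 with dopamine, against 49.3 and 57.5 with PBS, a log2 fold change of -0.47 (95% confidence interval -0.97 to 0.02, limma adjusted p = 0.173). Crtc2 had 84.9 and 90.3 with dopamine, against 76.4 and 64.4 with PBS, a log2 fold change of 0.32 (95% confidence interval -0.07 to 0.70, limma adjusted p = 0.252). Crtc3 had 60.2 and 78.7 with dopamine, against 64.6 and 91.9 with PBS, a log2 fold change of -0.16 (95% confidence interval -0.57 to 0.25, limma adjusted p = 0.625). The groups overlapped for Crtc3 only, and the intervals of all 3 include 0. Crebbp and Ep300 encode the histone acetyltransferases CBP and p300, which bind phosphorylated CREB. Crebbp had 399.6 and 488 with dopamine, against 457 and 550.1 with PBS, with a log2 fold change of -0.18 (95% confidence interval -0.40 to 0.04, limma adjusted p = 0.25). Ep300 had 301 and 358 with dopamine, against 297 and 313 with PBS, with a log2 fold change of 0.11 (95% confidence interval -0.13 to 0.34, limma adjusted p = 0.564). Limma gave 0 of the 5 an unadjusted p under 0.05 and DESeq2 called 0, whereas edgeR called Crebbp lower (-0.31, adjusted p = 0.0163) and limma rescaled on abundant genes called Crebbp (-0.38) and Crtc1 (-0.66) lower.

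The salt-inducible kinases, which PKA restrains and which hold the CREB-regulated coactivators in the cytoplasm, were the only group with every member called by limma. All 3 belong to the abundant genes, of which 47.0% were called, and DESeq2 called 2 of the 3. Sik3, at chr9:46012820-46224194, rose most and had 778 and 879.7 in the dopamine libraries, against 508 and 553 in the PBS libraries. The groups were well apart, with a log2 fold change of 0.64 (95% confidence interval 0.45 to 0.83, limma adjusted p = 7.63e-07), so the dopamine mean was 1.56 times the PBS mean. Sik1, itself known as a gene that cAMP and CREB switch on, had 211 and 249 in the dopamine libraries, against 151 and 162 in the PBS libraries. Its log2 fold change was 0.55 (SE 0.14, limma adjusted p = 0.00225), and without dopamine B it was 0.43 and not called (adjusted p = 0.123). Sik2, the kinase also known as QIK, had 81.8 and 86.4 in the dopamine libraries, against 100.2 and 147 in the PBS libraries. It fell by 0.53 on the log2 scale (SE 0.18, limma adjusted p = 0.0295), with a wide gap between its PBS libraries. The Sik2 call was lost in 5 alternatives, DESeq2 (-0.58) and the fit without PBS B (-0.25) among them, and 15.0% of its exon bases overlap Ppp2r1b on the other strand. Of the reads in the 3 kinases, Sik3 took 72.6% in dopamine A and 72.4% in dopamine B, against 66.9% in PBS A and 64.2% in PBS B. Sik2 took 7.63% in dopamine A and 7.11% in dopamine B, against 13.2% in PBS A and 17.1% in PBS B. Sik1 kept a similar share, 19.7% in dopamine A and 20.5% in dopamine B, against 19.9% in PBS A and 18.8% in PBS B. The window around the Sik3 start is shown because it held 3 short forms of the cAMP response element, in capitals, and no whole one. It lies at chr9:46012570-46012869 on the plus strand of GRCm38.p6, from RefSeq. The window of Sik2, which fell, held 2 short forms, and 1 window of Akap11, which was not called, held 3. The part of such matches in the changes was not tested.
Sik3: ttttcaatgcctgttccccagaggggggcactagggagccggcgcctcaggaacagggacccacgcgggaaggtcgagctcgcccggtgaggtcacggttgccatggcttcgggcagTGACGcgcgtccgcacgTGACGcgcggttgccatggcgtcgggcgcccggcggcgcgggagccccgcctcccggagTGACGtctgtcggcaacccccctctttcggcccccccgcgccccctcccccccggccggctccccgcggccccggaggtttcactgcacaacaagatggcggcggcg

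**Figure D3:**
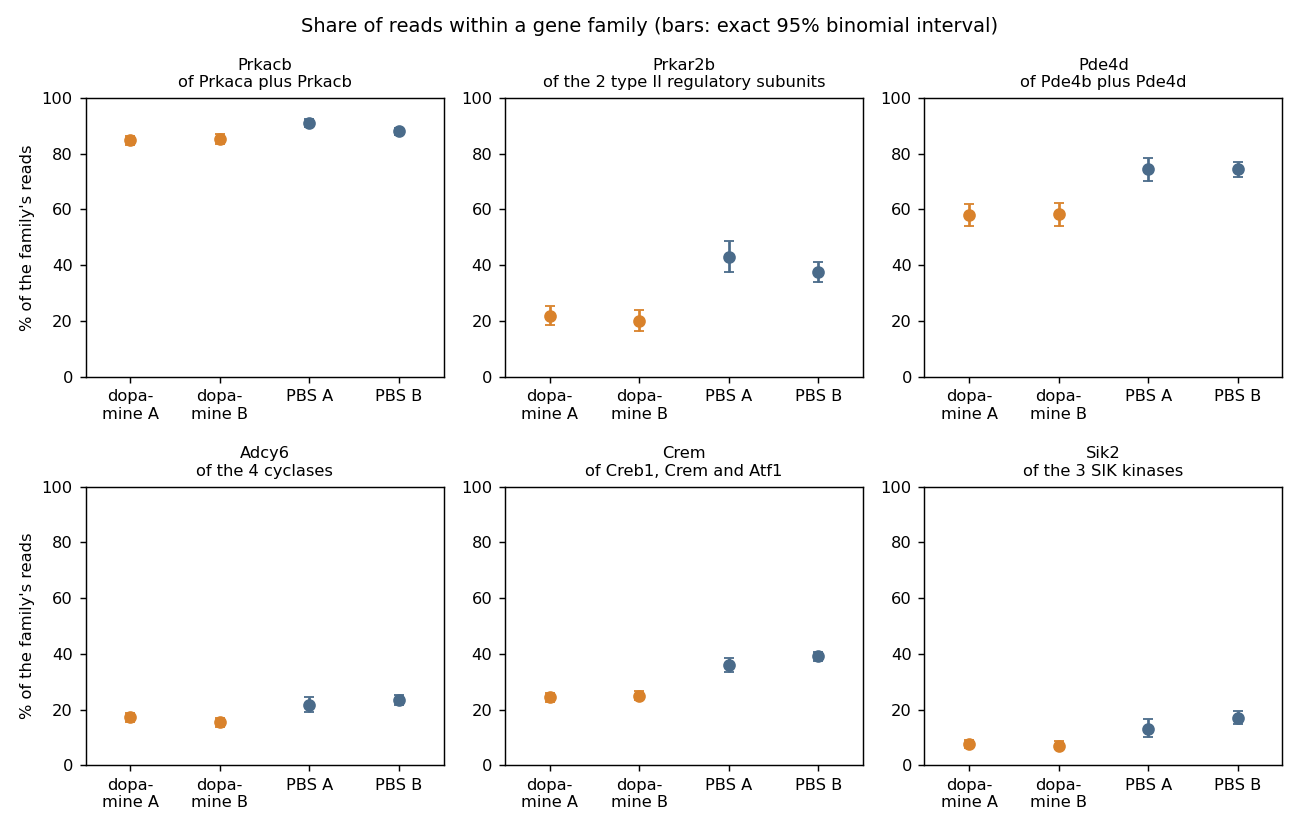
Share of a gene family's reads, in percent, taken by single members in each library, with exact binomial 95% intervals that cover counting error only; dopamine libraries stand to the left of PBS libraries. Prkar2b takes 21.8% and 19.96% of type II reads with dopamine against 43.0% and 37.5% with PBS, and Crem takes 24.4% and 25.0% of its family's reads with dopamine against 35.9% and 39.2% with PBS.

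The Rap exchange factors load the small GTPase Rap with GTP, which T cells use in integrin adhesion. Rapgef6 was by far the most abundant of the 3 and had 5226 and 5545 in the dopamine libraries, against 5986 and 6527 in the PBS libraries. The groups did not overlap, and it fell by 0.22 on the log2 scale (SE 0.06, limma adjusted p = 0.00764), a call lost without dopamine A (-0.17) and without PBS B (-0.15). Rapgef1, a partner of the adaptor Crk, had 633 and 788 in the dopamine libraries, against 545 and 609.9 in the PBS libraries. Its log2 fold change was 0.29 (SE 0.10, limma adjusted p = 0.0296), and 9 alternatives did not call it. Rapgef2 had 427 and 432 with dopamine, against 467 and 482 with PBS, a log2 fold change of -0.14 (95% confidence interval -0.35 to 0.06, limma adjusted p = 0.344). Of the reads in the 3 genes, Rapgef6 took 83.1% in dopamine A and 81.96% in dopamine B, against 85.5% in PBS A and 85.7% in PBS B. The exchange factors that cAMP binds directly, Rapgef3 (EPAC1) and Rapgef4 (EPAC2), were low and not called. Rapgef3 had 17.7 and 15.5 with dopamine, against 6.79 and 14.6 with PBS, with a log2 fold change of 0.68 (95% confidence interval -0.19 to 1.55, limma adjusted p = 0.285). Rapgef4 had 21.6 and 22.3 with dopamine, against 37.4 and 33.7 with PBS, with a log2 fold change of -0.67 (95% confidence interval -1.26 to -0.07, limma adjusted p = 0.104).

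Levels between genes can be set side by side only per length, here as normalized counts per kilobase of all annotated exon bases of a gene in GENCODE M21. On that scale the G alpha subunits were led by Gnai3, at 900.4 with dopamine and 879 with PBS, while Gna13 (462 with dopamine and 465 with PBS) and Gnai2 (464 with dopamine and 449.6 with PBS) lay close to each other. Gnaq (19.5 with dopamine and 20.3 with PBS) and Gnas (6.55 with dopamine and 5.21 with PBS) were far lower. Long annotated exons lower the per-length value of Gnas, but its normalized counts, 53.6 to 78.7 across the libraries, were low as well. The overlap of 22% of its exon bases with genes on the other strand may affect its counts, which was not tested. Adcy7 led the cyclases (192 with dopamine and 181 with PBS), followed by Adcy6 (40.4 with dopamine and 58.1 with PBS), Adcy3 (14.2 with dopamine and 12.5 with PBS) and Adcy9 (5.40 with dopamine and 10.04 with PBS). The ranges of Adcy3 and Adcy9 overlapped with PBS and were apart with dopamine. Pde3b led the phosphodiesterases (120.4 with dopamine and 154 with PBS) and Pde7a came next (81.2 with dopamine and 75.2 with PBS). Pde8a (41.2 with dopamine and 47.1 with PBS) and Pde4d (24.9 with dopamine and 45.6 with PBS) lay near each other with PBS, where the range of Pde8a, from 43.7 to 50.6, enclosed the values of Pde4d, and apart with dopamine. Pde4b (20.4 with dopamine and 17.8 with PBS) was below Pde4d in each library. Prkacb exceeded Prkaca on this scale (168 with dopamine and 236 with PBS, beside 104 with dopamine and 97.01 with PBS). Prkar1a was the most abundant regulatory subunit (476 with dopamine and 435 with PBS). Prkar2a (54.4 with dopamine and 49.2 with PBS) and Prkar2b (25.1 with dopamine and 57.9 with PBS) changed places on this scale. Prkar2b was the higher in both PBS libraries, narrowly in PBS B (53.1 beside 50.7), and Prkar2a in both dopamine libraries. In reads, Prkar2a exceeded Prkar2b in every library, so the change of places rests on the annotated lengths of 6.378 and 3.652 kb. In the CREB family the order differed between groups. Crem (98.2 with dopamine and 163 with PBS) was above Atf1 (162 with dopamine and 136 with PBS) in both PBS libraries and below it in both dopamine libraries, and Creb1 (92.5 with dopamine and 85.8 with PBS) was below Atf1 in every library. In reads, Crem exceeded Atf1 in every library, so that change of order also rests on the annotated lengths of 5.895 and 3.06 kb. Sik3 (88.97 with dopamine and 56.9 with PBS) led the kinases, followed by Sik1 (44.8 with dopamine and 30.5 with PBS) and Sik2 (8.82 with dopamine and 12.96 with PBS). Summed over each class, phosphodiesterase transcripts per kilobase stood to cyclase transcripts as 1.25 in dopamine A and 1.06 in dopamine B, against 1.32 in PBS A and 1.29 in PBS B. Both dopamine ratios were below both PBS ratios, but dopamine A lay closer to either PBS library than to dopamine B. The ratio was not tested, and Adcy7, which was not called, made up most of the cyclase sum.

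**Figure D4:**
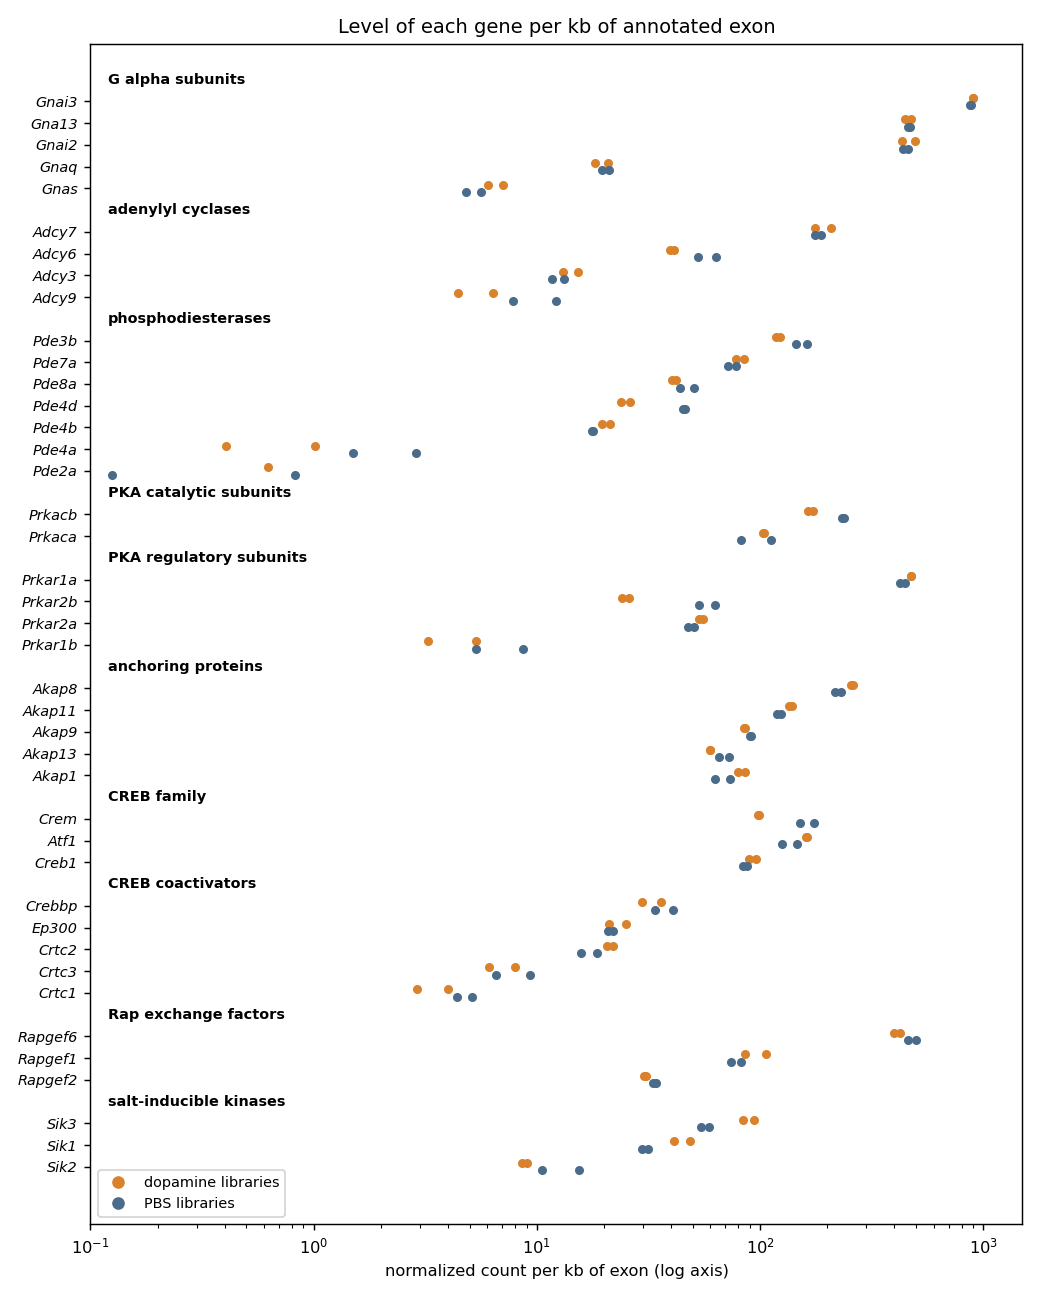
Normalized counts per kilobase of exon, on a log axis, for the 41 genes in each library, grouped by role, with dopamine points above PBS points for each gene. Values run from under 1 for Pde2a, whose dopamine B value of 0 cannot be drawn on this axis, to about 900.4 (the dopamine mean) for Gnai3.

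Other genes of the pathway were taken from a list of 78 by name, of which 73 were found. Of these, 4 were called higher, 10 lower and 59 not at all, with a median log2 fold change of -0.17. The shares were 5.48% higher and 13.7% lower, beside 14.3% and 7.00% of all genes. This list too was chosen with earlier results of these data known. The most marked fall by p-value was that of Akap12, an anchoring protein also known as gravin, which had 139 and 124 in the dopamine libraries, against 360.1 and 361 in the PBS libraries, a log2 fold change of -1.45 (SE 0.13, limma adjusted p = 2.97e-12). Pde10a, a phosphodiesterase of both cAMP and cGMP, had 14.7 and 15.5 with dopamine, against 67.9 and 52.1 with PBS, with a log2 fold change of -1.91 (SE 0.29, limma adjusted p = 1.17e-06). Pde3a, the relative of Pde3b, had 5.40 and 4.85 with dopamine, against 32.3 and 15.3 with PBS, with a log2 fold change of -1.93 (SE 0.46, limma adjusted p = 0.00147), and without PBS A it was -1.41 and not called (adjusted p = 0.154). Of the 9 phosphodiesterases outside the members, 3 were called lower and none higher. Gnaz, an inhibitory G alpha subunit, had 13.9 and 8.74 with dopamine, against 32.3 and 30.6 with PBS, with a log2 fold change of -1.43 (SE 0.36, limma adjusted p = 0.00243). The Gnaz call was lost in DESeq2 (-1.46, adjusted p = 0.065), without dopamine B (-1.12) and without PBS A (-1.39). Pde3a and Gnaz are also known from platelets, whose marker values stand above, and their part in these results was not tested. Gngt2, a G gamma subunit, fell by 0.81 on the log2 scale and Crebrf, a regulator of CREB3 proteins, by 0.51. Gnb1, a G beta subunit, had 1431 and 1573 with dopamine, against 1091 and 1215 with PBS, with a log2 fold change of 0.38 (SE 0.08, limma adjusted p = 3.09e-04), a call lost without PBS A (0.30). Ric8a, a chaperone of G alpha subunits, had 615 and 667 with dopamine, against 462 and 487 with PBS, with a log2 fold change of 0.43 (SE 0.10, limma adjusted p = 7.07e-04). No pathway gene outside the members was called higher after rescaling on abundant genes, where 3 had an unadjusted p under 0.05. None of the 3 genes of PKA inhibitors was called. Pkia had 1.54 and 1.94 with dopamine, against 1.70 and 4.60 with PBS. Pkig had 30.9 and 26.2 with dopamine, against 23.8 and 29.9 with PBS. Pkib, named after its values were seen, had 77.9 and 83.5 with dopamine, against 66.2 and 115 with PBS, with overlapping groups. Gna15, a subunit of blood cells, had 51.7 and 48.5 with dopamine, against 54.4 and 31.4 with PBS, and was not called.

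Among 20 genes known as targets of cAMP and CREB signalling, 9 were called higher, 3 lower and 8 not at all, with a median log2 fold change of 0.65. The 45% called higher stand beside 14.3% of all genes, and the 15% called lower beside 7.00%. All 9 higher calls were among the 14 targets that belong to the abundant genes, a share of 64.3%, beside 39.1% of the abundant genes. Lower calls made up 14.3% of these 14, beside 7.90% of the abundant genes. The list was chosen with earlier results of these data known, so these shares are a description only. Junb, an AP-1 subunit, had 1559.9 and 1688 in the dopamine libraries, against 695 and 677 in the PBS libraries, a log2 fold change of 1.24 (SE 0.08, limma adjusted p = 2.81e-16). Rgs2, which shortens G protein signals, had 297 and 292 with dopamine, against 98.5 and 92.7 with PBS, a log2 fold change of 1.61 (SE 0.14, limma adjusted p = 1.49e-12). Id2 (0.98), Cdkn1a (0.74), Egr1 (0.70) and Nfil3 (0.66) also rose on the log2 scale. Other signals switch on each of these genes too. Bcl2, which protects from apoptosis, had 1610.0 and 1645 with dopamine, against 2548 and 2700.0 with PBS, a log2 fold change of -0.69 (SE 0.07, limma adjusted p = 1.94e-10). Nr4a2, a nuclear receptor of the early response, had 282 and 242 with dopamine, against 377 and 404 with PBS, a log2 fold change of -0.58 (SE 0.12, limma adjusted p = 1.47e-04). The known targets thus moved in both directions, 9 called higher and 3 lower, and so did the members, 4 higher and 11 lower.

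**Figure D5:**
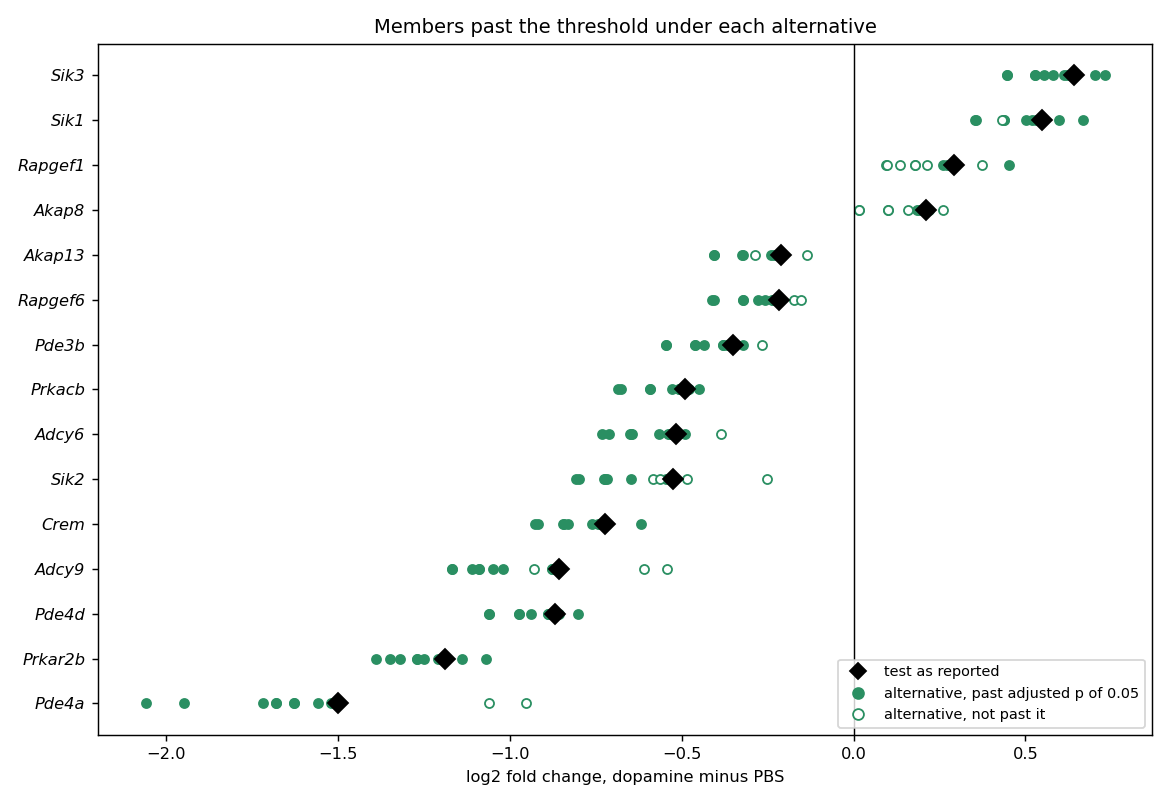
Log2 fold changes of the 15 called genes in the reported analysis and in each of the 14 alternatives, with dopamine over PBS on the x axis and 1 line of points per gene. Adcy9 and Pde4a lack a value in some alternatives, no point changes sign, and Prkar2b, Pde4d, Crem, Prkacb and Sik3 are the 5 genes called in all alternatives.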

How the data were processed

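Total RNA of Th2 cells was made into stranded mRNA libraries, per the labels' protocols. Per the submitters' processing notes, the tools were FastQC 0.11.2, TopHat2 2.0.13, HTSeq 0.6, DESeq2 and R 3.6.2, with mm10 as the build. Annotation and strand setting of the counting were not stated there, so reads of overlapping genes may be mixed.

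The authors deposited 1 table of 26207 genes. Its library columns hold a signal, the authors' reads divided by 1 size factor for each library. Per the file headers it also holds the authors' DESeq2 log2 fold change, Wald score and p-values. All library values (100%) were whole multiples of 1 read within 0.01, so reads were recovered. Each column could be tied to a group but not to a numbered sample, and 0 columns of other samples were present.

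The plan named limma for normalized values. Limma 3.58.1 in R 4.3.3 was run on log2(value + 1) with a trend of variance on mean, without a filter, 2-sided and with Benjamini-Hochberg adjustment at 0.05. Fold changes of low genes are understated on that scale. Limma's prior degrees of freedom were 42.4, so the p-values rest mostly on a spread shared by genes of like abundance. On the recovered reads, edgeR 4.0.16 called 5219 of 15329 genes and DESeq2 1.42.0 called 3261 of 12997. Other alternatives changed scaling, filter or pseudocount, left out each library, or used the column number as a block. Library pairs differed by more than sampling noise, with a chi-square per degree of freedom of 3.98 for dopamine and 2.64 for PBS.

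Members and lists were chosen with earlier results of these data known. Every member is reported. From the lists of other pathway genes and of known targets, the 8 called genes with the smallest p were named, together with Pkia, Pkig, Rapgef3, Rapgef4 and Gna15. Promoter windows came from RefSeq and lengths and positions from GENCODE M21, both on GRCm38, the mm10 assembly. Gnai2, Adcy6, Pde3b, Pde7a, Crem, Crtc2 and Sik1 had no window in the table.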

Additional observations from a re-analysis of the deposited data

How the results depend on the processing

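Each group had 2 libraries. Pde2a and Pde4a rest on 15 reads or fewer in each library, and PBS A was the shallowest library. Prkar2b, Pde4d, Crem, Prkacb and Sik3 were called in the same direction in all 14 alternatives. Of the other 10 called members none changed sign in any alternative that gave a value. Of the 26 members not called, 11 were called in some alternative and 15 changed sign in some. The causes were not tested.

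Over all genes, 5577 were called in the reported test, 3261 by DESeq2 and 2914 to 4299 when a library was left out, with the fewest without PBS A. For members called higher, 4 in the reported test, the count was 2 with edgeR and TMM, DESeq2, edgeR with DESeq2 size factors, edgeR with upper-quartile scaling and limma rescaled on abundant genes. It was 7 among genes of at least 5 CPM and 1 to 4 when a library was left out, with 1 without dopamine B and 2 without PBS A. For members called lower, 11 in the reported test, the count was 14 with edgeR and TMM, 7 with DESeq2, 19 with upper-quartile scaling, 18 with the rescaling and 5 to 9 when a library was left out, with 5 without PBS B and 6 without dopamine A. The median log2 fold change of members was -0.176 with upper-quartile scaling and -0.204 with the rescaling. For other pathway genes, 4 higher and 10 lower, upper-quartile scaling gave 2 higher and 21 lower, and the rescaling 0 higher and 21 lower. Lower pathway genes numbered 16 with edgeR and TMM, 5 with DESeq2, 4 among genes of at least 5 CPM and 4 to 8 when a library was left out, and higher ones 1 to 4 when a library was left out. Known targets called lower were 5, in place of 3, with edgeR under TMM, DESeq2 size factors or upper-quartile scaling and with the rescaling.

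Changes of sign concerned genes that the reported test did not call. With upper-quartile scaling the log2 fold change was -0.0299 for Adcy3, -0.112 for Adcy7, -0.015 for Akap11, -0.0706 for Creb1, -0.0862 for Ep300, -0.148 for Gnai2, -0.154 for Gnai3, -0.079 for Pde7a, -0.125 for Pkig, -0.134 for Prkaca, -0.0628 for Prkar1a and -0.0483 for Prkar2a. With the rescaling on abundant genes it was -0.0127 for Adcy3, -0.115 for Adcy7, -0.0199 for Akap11, -0.0865 for Creb1, -0.0877 for Ep300, -0.152 for Gnai2, -0.16 for Gnai3, -0.0832 for Pde7a, -0.098 for Pkig, -0.0779 for Prkaca, -0.0676 for Prkar1a and -0.0493 for Prkar2a. With edgeR and TMM it was -0.028 for Adcy7, -0.00319 for Ep300, -0.0638 for Gnai2, -0.0696 for Gnai3, -0.0448 for Pkig and -0.0518 for Prkaca. With edgeR and DESeq2 size factors these were -0.0272, -0.00251, -0.063, -0.0687, -0.0443 and -0.0511 in the same order of genes. When a library was left out, the log2 fold change ran from -0.0393 to 0.198 for Adcy7, -0.413 to 0.0907 for Crtc3, -0.0189 to 0.232 for Ep300, -0.0517 to 0.034 for Gna13, -0.116 to 0.657 for Gna15, -0.0511 to 0.137 for Gnai2, -0.153 to 0.0394 for Gnaq, -1.71 to 0.566 for Pde2a, -1.03 to 0.0194 for Pkia, -0.0686 to 0.249 for Pkig and -0.109 to 0.341 for Prkaca.

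The columns of both groups carry the same numbers, but nothing in the labels ties same-numbered libraries to a shared source. Deviations of same-numbered libraries from their group means correlated at 0.125 across 11611 genes. With the number as a replicate block, 6999 genes were called, 7 members were higher and 11 lower.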
